A study of Mus musculus with 8 samples.

Results

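The EGF receptor and MET receptor genes were examined together with their ligands and the EGFR inhibitor Errfi1, which made 10 genes of the 21924 protein-coding genes in GENCODE release M21. They were chosen by name, starting from Egfr because the widest region of increased H3K27ac in the data lay in it, so the class and width of the Egfr regions are given below as a description, with no test. H3K27ac, the acetylation of histone H3 on lysine 27, marks active promoters and enhancers. It had been profiled by ChIP-seq in mouse primary hepatocytes (MPH) of adult male wild-type C57Bl6 mice. Cells kept in serum-free medium received either 1 µM thapsigargin, which blocks the calcium pump of the endoplasmic reticulum and triggers ER stress (ERS), or 0.04% DMSO as vehicle, for 4 h. The 8 samples were 3 H3K27ac libraries and 1 input library for each treatment, and the 3 libraries came from independent preparations.

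The values were 3 lists of positions on the mm10 genome. UP and DOWN regions passed an FDR of 0.05 for a change between treatments, where the number of UP bins divided by that of DOWN bins was 2 or more (UP) or 0.5 or less (DOWN), and unchanged regions had a higher FDR. They held 5508 UP regions, 3376 DOWN regions and 23312 unchanged regions, or 17.1%, 10.5% and 72.4% of all 32196, and none overlapped another. Median widths were 1621 bp, 2229 bp and 1155 bp. Since the lists carry positions and class alone, nothing was tested, depth is unknown and the values below have no error between preparations. A stretch in no list may have had no peak or a peak with mixed bins, and these cannot be told apart. RNA was not measured in these samples, and the paper's microarrays of MPH under the same treatment were not used here. The lists were read as thapsigargin against DMSO, since the paper uses UP for increased and DOWN for decreased H3K27ac on ERS. In the published commands a comment names this contrast, but the order of the levels makes thapsigargin the reference, which taken alone would turn the meaning of UP and DOWN around. Beyond the paper's naming, the reading rests on ERS genes. Of 7 genes known to be induced by ERS, 6 had a transcription start site (TSS) at UP (Hspa5, Ddit3, Herpud1, Xbp1, Nfil3 and Hsp90b1). None had one at DOWN, and Atf4 lay in an unchanged region. Among marker genes, 7 of 8 hepatocyte genes had a TSS in a region (3 DOWN and 4 unchanged), against 0 of 10 for stellate cells, 0 of 10 for Kupffer cells and leukocytes, 1 of 9 for endothelial cells and 3 of 7 for cholangiocytes. Of the cholangiocyte genes, Sox9 lay in an UP region of 2906 bp and Spp1 in an unchanged region. What part other cells had in any class below was not tested.

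EGFR, ERBB2 and ERBB3 are receptor tyrosine kinases of a single family that pair with each other when a ligand binds and then feed the RAS-ERK and PI3K-AKT pathways. Amphiregulin (Areg), HB-EGF (Hbegf), TGFα (Tgfa) and EGF (Egf) are EGFR ligands, released from membrane-bound precursors. MET is the receptor of hepatocyte growth factor (Hgf), which in the liver comes mainly from stellate cells. ERRFI1, also called MIG6, binds the EGFR kinase domain and inhibits it. In hepatocytes both EGFR and MET carry signals for survival and for growth after loss of liver tissue.

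Among the 10 genes, a TSS of Met lay at an UP region, TSSs of Egfr, Erbb3 and Errfi1 at DOWN regions, and none of the 5 ligand genes had a TSS in a changed region. A gene counted for a class when the TSS of any of its transcripts lay in a region of that class. That gave 1 of 10 genes at UP, beside 9.68% of protein-coding genes, and 3 of 10 at DOWN, beside 3.72%. Unchanged regions held a TSS of 6 genes (Egfr, Met, Areg, Hbegf, Tgfa and Egf), 4 of which had no TSS in another class, beside 33.5% of protein-coding genes. Erbb2 and Hgf had no TSS in any region, so 8 of 10 genes had one, beside 44.7%. The background shares at UP and DOWN thus include a larger part of genes outside every region than the 10 genes do. Since the genes were chosen with the Egfr regions in view, these counts describe the list and are not set against the background by a test. By transcript, the 10 genes had 42 annotated transcripts, of which 5 started at UP, 7 at DOWN, 12 at unchanged regions and 18 outside every region. Every gene of the 10 with a TSS at a changed region, namely Egfr, Met, Erbb3 and Errfi1, was also in the study's list of liver-identity genes, drawn from broad H3K4me3 domains seen preferentially in liver, and the remaining members were not.

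With a wider view, Hbegf and Erbb2, which had no TSS at a changed region, had changed regions nearby. Within 50 kb of a TSS lay 57 regions, of which 14 were UP, 9 DOWN and 34 unchanged. UP regions were found near Egfr, Met, Hbegf and Errfi1, or 4 of 10 genes, beside 34.6% of protein-coding genes. DOWN regions were found near Egfr, Erbb3, Errfi1 and Erbb2, again 4 of 10, beside 20.5%. Inside the gene bodies, UP regions occurred in 2 genes, Egfr and Met, beside 15.7%, and DOWN regions in 3, Egfr, Erbb3 and Errfi1, beside 8.04%. Egfr alone among the 10 held both kinds in its body, which 2.31% of protein-coding genes did. Counts in bodies and windows grow with gene length and with the spread of a gene's TSSs, and Egfr and Met are the longest of the 10 genes, at 165956 bp and 110181 bp. At the edge of the window, a DOWN region upstream of Egfr spanned −51.4 to −47.3 kb and an unchanged region upstream of Errfi1 −50.3 to −49.1 kb.

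**Figure D1:**
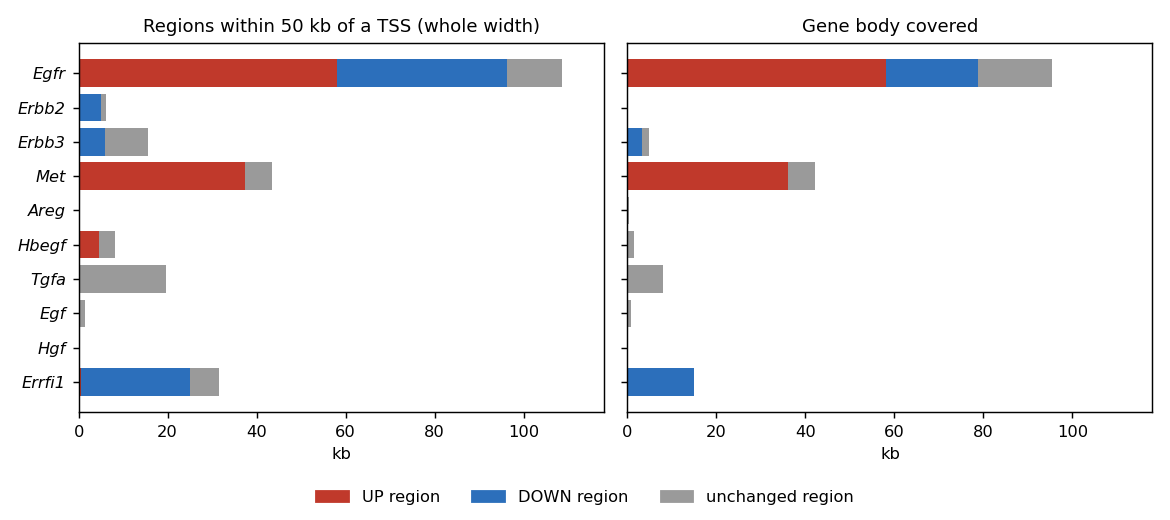
Kilobases of UP, DOWN and unchanged H3K27ac regions for each of the 10 genes, as the whole width of regions within 50 kb of a TSS (left) and as the part of the gene body they covered (right). In the window, Egfr carried 58123 bp of UP and 38125 bp of DOWN regions, and Met carried 37421 bp of UP regions. Errfi1 carried 24632 bp of DOWN regions, and Hgf carried no region.

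The Egfr gene (ENSMUSG00000020122.16, chr11:16752203-16918158, plus strand, mm10) had a DOWN region at its 5′ end and UP regions farther along its first intron. A DOWN region of 22002 bp, chr11:16750893-16772894, ran from −1.3 kb to 20.7 kb relative to the 5′ end. It covered exon 1, the start of intron 1 and the TSSs of 3 of the 5 transcripts, 2961 bp before the next listed region began. That next region, chr11:16775856-16814949, was UP and 39094 bp wide, reached from 23.7 kb to 62.7 kb, and lay entirely in intron 1, which is 106325 bp long. It was the widest of all 32196 regions, and the DOWN region before it ranked 32 among all of them and 19 among DOWN regions. Both classes thus met inside a single intron of the receptor gene.

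Further UP regions followed in the same intron, 13468 bp wide from 76.7 kb to 90.2 kb and 5561 bp wide from 96.1 kb to 101.7 kb. The former held the TSS of Egfros, an annotated antisense transcript. Unchanged regions of 7863 bp and 1877 bp lay between these UP regions. Downstream of intron 1 there were only unchanged regions, of 5760 bp over introns 4 to 7, of 319 bp around exon 11 and of 837 bp at exon 22, where a processed transcript of Egfr starts. A coding transcript that starts between the last of these was in no region. Upstream of the gene, DOWN regions of 12033 bp (−17.3 to −5.3 kb) and 4090 bp were separated by an unchanged region of 3574 bp. The order along the locus was therefore DOWN regions upstream and at the 5′ end, then UP regions along intron 1 with unchanged regions between them. Of the exons that follow, a few met unchanged regions and most lay in no region.

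**Figure D2:**
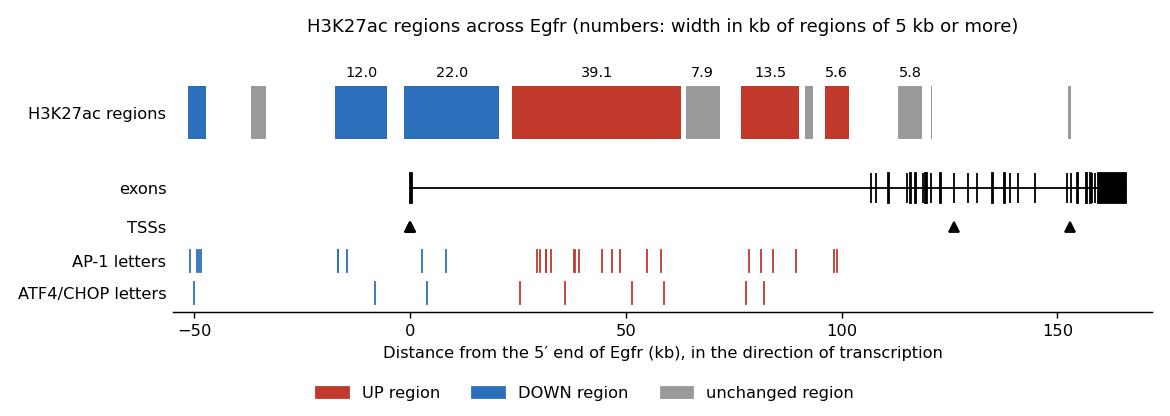
Map of Egfr, with distance from the 5′ end in kb on the x axis, H3K27ac regions as blocks coloured by class, exons as vertical bars, annotated TSSs as triangles, and matches to the AP-1 and ATF4/CHOP letters in changed regions as ticks. The DOWN block of 22002 bp at the TSSs is followed by the UP block of 39094 bp after a gap of 2961 bp.

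Together the regions covered 57.5% of the Egfr body, with 35.0% UP, 12.5% DOWN and the rest unchanged. The 58123 bp of UP sequence ranked 1 among the 3439 protein-coding genes with any UP sequence in the body, and the 20692 bp of DOWN sequence ranked 37 among 1763. Across the genome, 654 pairs of neighbouring listed regions joined an UP and a DOWN region, with a median gap of 26790 bp, and 101 of these gaps were at most 5 kb. The Egfr pair ranked 1 by summed width, at 61096 bp with the next pair at 40325 bp. It also ranked 1 by the width of its narrower member, where the next pair had 13927 bp, and 4 pairs had both regions at 10 kb or more. Because Egfr was chosen for holding the widest UP region, its ranks by UP sequence and by summed width largely follow from that choice. A DOWN TSS with an UP region in the body was not confined to Egfr. Of 815 protein-coding genes with a TSS in a DOWN region, 153 had one.

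Genes with a body of at least 20 kb were ranked by how close the UP, DOWN and unchanged shares of their body lay to those of Egfr, over 10150 genes. The nearest were Hs3st3b1 (38.6% UP, 13.0% DOWN and 13.1% unchanged, 4.76 percentage points away), Plcxd2 (9.26 points), Dusp1 (9.91 points), Acadm (11.4 points) and Klkb1 (11.4 points). Acadm, which encodes a fatty acid oxidation enzyme, had TSSs in both a DOWN and an UP region. Dusp1, which encodes a phosphatase of MAP kinases, had TSSs in UP and unchanged regions. Likeness here is of percentages alone and not of position along the gene.

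Sequences from the Egfr locus are shown from the regions on both sides of the change in class. The 250 bases upstream of the RefSeq start (GRCm38.p6, the assembly also called mm10) lie in the DOWN region, have 60.8% G and C, and held none of the 11 motifs searched (AP-1, CRE, ATF4/CHOP, UPRE, NRF2/MAF, HNF4, FOXA, C/EBP, D-box, EGR and SP1). Letters for AP-1, the FOS-JUN dimer that acts downstream of growth factor receptors, were TGACTCA or TGAGTCA on either strand, and those for ATF4/CHOP, transcription factors of the ERS response, were TGATGCAA or TGATGAAA. Of the 13 AP-1 matches in the widest UP region, the 5 that lay closest together are printed with 20 bases on each side, followed by its match to TGATGCAA and the 2 AP-1 matches of the DOWN region. Capitals mark the matched letters, and sequences run 5′ to 3′ on the plus strand.
Egfr upstream of the start, chr11:16751953-16752202 (+): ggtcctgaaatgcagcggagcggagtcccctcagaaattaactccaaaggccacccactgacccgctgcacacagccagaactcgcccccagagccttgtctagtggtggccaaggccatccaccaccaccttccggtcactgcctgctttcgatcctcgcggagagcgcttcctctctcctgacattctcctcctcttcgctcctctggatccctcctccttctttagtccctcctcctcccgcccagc
UP region, AP-1 match at 29.3 kb, chr11:16781473-16781519 (+): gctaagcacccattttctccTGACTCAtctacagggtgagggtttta
UP region, AP-1 match at 30.1 kb, chr11:16782270-16782316 (+): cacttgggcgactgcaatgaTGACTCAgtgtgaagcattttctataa
UP region, AP-1 match at 31.5 kb, chr11:16783645-16783691 (+): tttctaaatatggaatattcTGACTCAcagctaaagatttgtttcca
UP region, AP-1 match at 31.6 kb, chr11:16783761-16783807 (+): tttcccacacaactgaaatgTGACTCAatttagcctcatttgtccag
UP region, AP-1 match at 32.7 kb, chr11:16784897-16784943 (+): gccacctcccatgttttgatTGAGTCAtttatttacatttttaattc
UP region, ATF4/CHOP match at 25.5 kb, chr11:16777686-16777733 (+): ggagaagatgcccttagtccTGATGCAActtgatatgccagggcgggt
DOWN region, AP-1 match at 2.8 kb, chr11:16754995-16755041 (+): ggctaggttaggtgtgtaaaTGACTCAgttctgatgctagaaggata
DOWN region, AP-1 match at 8.3 kb, chr11:16760492-16760538 (+): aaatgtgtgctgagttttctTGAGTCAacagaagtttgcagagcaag

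AP-1 and ATF4/CHOP letters were no denser in the Egfr UP regions than over all UP regions, while FOXA letters were denser in Egfr regions of every class. AP-1 letters occurred 0.333 times per kb in the widest UP region and 0.327 times per kb over the 3 UP regions of Egfr, against 0.409 per kb over all UP regions, 0.239 over all DOWN regions and 0.308 over all unchanged regions. The 3 Egfr DOWN regions had 0.236 per kb, and the 6 unchanged regions in and near Egfr had 0.445 per kb, from 9 matches. ATF4/CHOP letters occurred 0.103 times per kb in Egfr UP regions, against 0.129 over all UP regions and 0.0722 over all DOWN regions. Of all 300-base windows, 11.2% of those in UP regions and 6.99% of those in DOWN regions held AP-1 letters. FOXA letters (TGTTTAC), which stand for pioneer factors of the liver, occurred 0.327 times per kb in the Egfr UP regions and 0.289 in the Egfr DOWN regions, against 0.169 and 0.176 over all regions of those classes. The unchanged Egfr regions had 0.297 per kb, against 0.171 over all unchanged regions. Beyond Egfr, the Met UP regions had 0.294 per kb and the Errfi1 DOWN regions 0.162. A match says only that the letters are there, and these are counts in a few regions of low G and C content, 42.2% in the widest UP region against 47.5% over all UP regions.

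**Figure D3:**
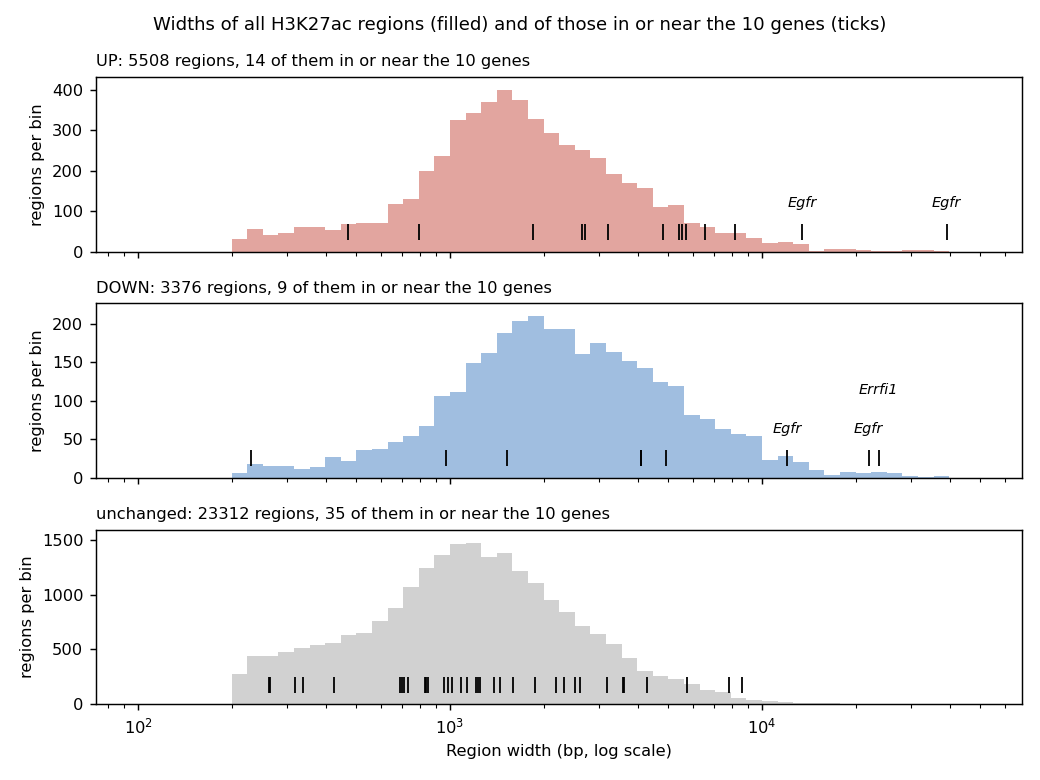
Histograms of region width in bp, on a log axis, for all UP, DOWN and unchanged regions, with ticks for the 58 regions in or within 50 kb of the 10 genes. Labels name the Egfr and Errfi1 regions of 10 kb or more, the widest of which is the UP region of 39094 bp in Egfr at the right end of the top panel.

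Met (ENSMUSG00000009376.15, chr6:17463800-17573980, plus strand) differed from Egfr in having UP regions from the 5′ end onward and no DOWN region within 50 kb of a TSS. The region at its 5′ end, chr6:17463245-17469805, was UP, 6561 bp wide, and held 4 of its 7 annotated TSSs. It was followed in intron 1 by UP regions of 5429 bp and 4833 bp, the latter reaching over exon 2. An UP region of 8186 bp, chr6:17496648-17504833, lay in intron 3, and 3 more, of 3218 bp, 5692 bp and 2706 bp, lay between introns 11 and 17. The region of 5692 bp held the TSS of a shorter coding transcript. Downstream of the gene there was an UP region of 796 bp.

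Unchanged regions of Met, at 2619 bp (with 1 TSS), 960 bp and 2515 bp, lay among the UP regions and were narrower than those in the body. Regions covered 38.3% of the body, with 32.7% UP and 5.53% unchanged. The 36070 bp of UP sequence in the body ranked 3 among protein-coding genes with any, and the 7 UP regions in the body ranked 7. The 8 UP regions within 50 kb of a TSS ranked 2, over a window made wide by TSSs spread along the gene. UP sequence in the body was thus split into 7 regions in Met, against 3 in Egfr.

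The UP region at the Met start held 3 AP-1 matches, printed here with 10 bases on each side. Met was the only receptor gene among the 10 with a TSS at increased H3K27ac, but AP-1 letters at a start were not particular to it. The DOWN region at the Erbb3 TSS held 1 AP-1 match, at −0.1 kb. AP-1 letters occurred 0.457 times per kb in the region at the Met start and 0.243 times per kb in that of Erbb3. The Met match in exon 1 is also in the 250 bases upstream of the RefSeq start of Met, and 4.46% of 32851 RefSeq promoters of that length held AP-1 letters. It runs on into the letters TGACNNNGC searched for NRF2 and MAF factors, so it counts in both searches.
Met, exon 1, chr6:17463893-17463919 (+): gttgcccggcTGAGTCAcgggccgggc
Met, intron 1, nearer match, chr6:17464347-17464373 (+): gccacctgtgTGACTCAggggcgccaa
Met, intron 1, farther match, chr6:17464418-17464444 (+): ctctgggatcTGACTCAgcccttacag
Over the 8 UP regions of Met, AP-1 letters occurred 0.321 times per kb and ATF4/CHOP letters 0.16 times per kb, against 0.409 and 0.129 over all UP regions.

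Erbb3 (ENSMUSG00000018166.8, chr10:128567523-128589652, minus strand), which encodes a receptor with little kinase activity that signals through its partners, had a DOWN TSS. Its single TSS lay in a DOWN region of 4109 bp, chr10:128586492-128590600, that covered exon 1 and part of intron 1. DOWN regions of 1523 bp and 230 bp lay upstream, between −11.5 kb and −8.3 kb. Within the gene, an unchanged region of 986 bp spanned introns 4 to 6, and another of 3185 bp met exon 28 and held the TSS of Pa2g4, the next gene. The remaining unchanged regions in the window were at Rpl41 and Zc3h10 (3599 bp), at Rps26 (1590 bp) and at no TSS (339 bp). No UP region lay within 50 kb.

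Erbb2 (ENSMUSG00000062312.5, chr11:98412470-98437716, plus strand), the family member with no known ligand of its own, had no region at a TSS or in its body. Its window held the unchanged regions of the neighbouring genes Pgap3 (424 bp) and Mien1 (853 bp) and a DOWN region of 4943 bp, chr11:98445471-98450413, with the TSS of Grb7. Grb7 encodes an adaptor that binds activated ERBB receptors. This DOWN region began 33.0 kb from the Erbb2 5′ end, beyond the 3′ end of the gene, and its nearest protein-coding TSS was not that of Erbb2. The receptors therefore fell into 4 patterns, with Met UP, Erbb3 DOWN, Egfr DOWN and UP, and Erbb2 outside every region.

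The TSSs of the ligands lay in unchanged regions or in none. Areg (ENSMUSG00000029378.5, chr5:91139599-91148432) had a single unchanged region of 265 bp at its TSS and nothing else within 50 kb. Hbegf (ENSMUSG00000024486.6, chr18:36504927-36515805, minus strand) had an unchanged region of 1444 bp over its 3 TSSs. The UP regions in its window were 1842 bp wide at 42.0 kb downstream and 2658 bp wide between −46.0 kb and −43.3 kb, and the latter held the TSS of Ankhd1. Neither had the Hbegf TSS as its nearest protein-coding TSS. The other 3 unchanged regions there were 713 bp, 263 bp and 1209 bp wide.

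Tgfa (ENSMUSG00000029999.14, chr6:86195223-86275719, plus strand) had the most regions of any ligand gene, 9, all unchanged. A region of 1382 bp held 3 of its TSSs, and 5 others of 733 to 2328 bp lay in intron 1. Upstream, between −19.8 kb and −11.2 kb, lay an unchanged region of 8615 bp, the widest unchanged region among the 10 genes. Egf (ENSMUSG00000028017.7, chr3:129677565-129755316, minus strand) had no region at its 5′ end, while an unchanged region of 689 bp held 3 TSSs of shorter transcripts around exon 6. A region of 701 bp lay downstream. Hgf (ENSMUSG00000028864.7, chr5:16553495-16620152, plus strand) had no region within 50 kb, none within 200 kb on either side, and its nearest region was 951519 bp from its 5′ end. The median of the widest TSS region was 1035 bp over the 4 ligand genes with one, beside 1782 bp over protein-coding genes with one.

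**Figure D4:**
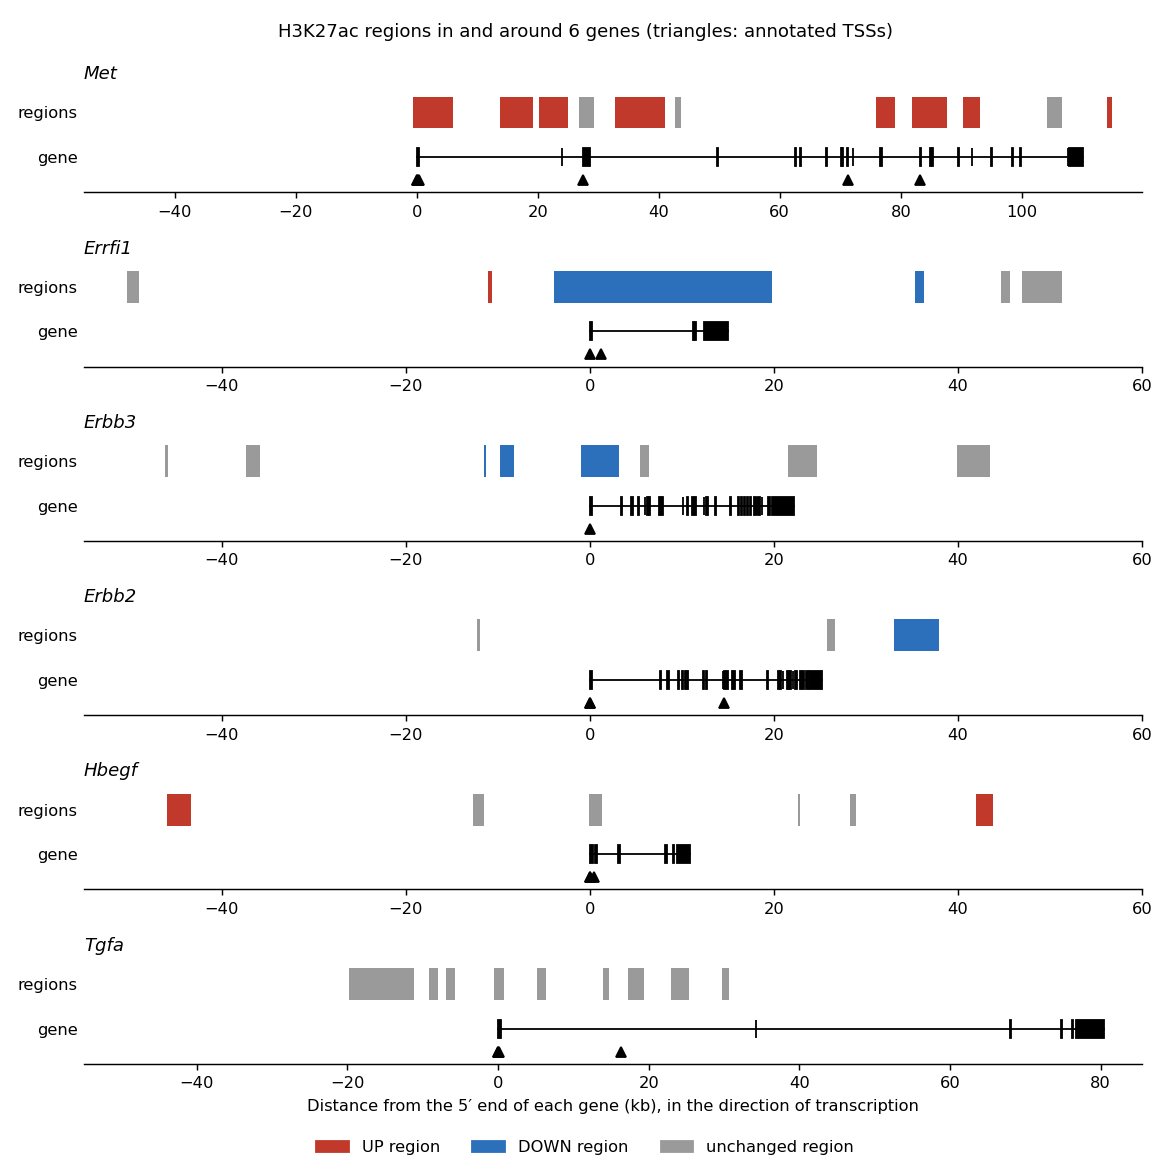
Maps of Met, Errfi1, Erbb3, Erbb2, Hbegf and Tgfa, drawn as distance from each gene's 5′ end in kb in the direction of transcription, with exons as bars, annotated TSSs as triangles and H3K27ac regions as blocks coloured by class. UP blocks run along Met, a DOWN block of 23661 bp covers all of Errfi1, and the 9 blocks of Tgfa are all unchanged.

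Errfi1 (ENSMUSG00000028967.10, chr4:150853919-150868892, plus strand), the inhibitor, lay whole in a DOWN region. That region, chr4:150850052-150873712, was 23661 bp wide and ran from −3.9 kb to 19.8 kb. It covered 100% of the 14974 bp gene with the starts of all 3 annotated transcripts, at 2 positions. It ranked 14 among DOWN regions and 24 among all regions, and by widest TSS region Errfi1 ranked 16 of 9805 protein-coding genes, with Egfr at 24, Met at 623 and Erbb3 at 1491. The region also held the TSS of the annotated transcript 1700045H11Rik. A DOWN region of 971 bp lay 35.3 kb downstream of the 5′ end. An UP region of 470 bp lay upstream, between −11.1 kb and −10.7 kb, and unchanged regions of 1249 bp, 1018 bp and 4291 bp lay toward the window's edges, the last at Park7. In the 200 kb upstream of Errfi1 there were 8 DOWN regions, 1 UP region and 6 unchanged regions.

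The upstream sequences of Errfi1 and Areg are shown together because both hold a cAMP response element (TGACGTCA, a palindrome, in capitals). The Errfi1 element lies in the DOWN region, whereas the Areg element lies just upstream of the unchanged region at its TSS and in no region. This element was found in 1.55% of the 32851 RefSeq promoters of 250 bases. G and C made up 64.8% of the Errfi1 sequence and 57.2% of the Areg sequence, and they held 30 and 15 CG dinucleotides. The other RefSeq start of Errfi1, also in the DOWN region, had 38.0% G and C and no match.
Errfi1 upstream of the second start, chr4:150854820-150855069 (+): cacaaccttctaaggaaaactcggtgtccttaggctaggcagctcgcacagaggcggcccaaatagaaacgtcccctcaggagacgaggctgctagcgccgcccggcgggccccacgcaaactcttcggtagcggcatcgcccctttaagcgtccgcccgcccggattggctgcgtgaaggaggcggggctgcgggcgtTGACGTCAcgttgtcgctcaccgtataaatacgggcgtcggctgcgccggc
Areg upstream of the start, chr5:91139349-91139598 (+): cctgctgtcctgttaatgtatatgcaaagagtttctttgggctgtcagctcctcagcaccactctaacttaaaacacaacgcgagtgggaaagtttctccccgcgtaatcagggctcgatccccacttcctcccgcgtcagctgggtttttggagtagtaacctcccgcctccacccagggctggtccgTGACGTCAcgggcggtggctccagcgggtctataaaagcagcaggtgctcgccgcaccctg
In the DOWN region of 23661 bp, AP-1 letters occurred 3 times (0.127 per kb) and ATF4/CHOP letters 4 times (0.169 per kb), against 0.239 and 0.0722 per kb over all DOWN regions.

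The other genes of the pathway were mostly at unchanged regions. Of 8 other ERBB ligands and receptors, none had a TSS at UP, Nrg4, an ERBB4 ligand, had one at DOWN (5246 bp) and 5 had no TSS in a region. Of 11 genes that process the ligands, 1 was at UP (Adam12, 767 bp), none at DOWN and 7 at unchanged regions. These included Adam17, the main sheddase of EGFR ligands (1648 bp), and Hpn and Hgfac, proteases that activate HGF (7680 bp and 2166 bp).

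Of 16 adaptor and trafficking genes, 3 were at UP (Rnf41 3074 bp, Hgs 2614 bp and Stam2 1884 bp), 2 at DOWN (Grb7 4943 bp and Plcg1 2379 bp) and 12 at unchanged regions. Of 16 genes of the RAS-ERK and PI3K core, 3 were at UP (Pik3cb 5207 bp, Stat3 2200 bp and Nras 1553 bp), 2 at DOWN and 13 at unchanged regions. In both lists every gene had a TSS in some region. Rnf41 encodes a ubiquitin ligase known to target ERBB3.

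Of 16 feedback inhibitors other than Errfi1, 4 were at UP, the MAP kinase phosphatases Dusp4 (6205 bp) and Dusp5 (3602 bp), Spred2 (2726 bp) and Ptpn1 (1295 bp). Ptprj, a receptor phosphatase, was at DOWN like Errfi1 (6260 bp) and 10 were at unchanged regions. Of 10 genes that ERK signalling is known to induce, Myc (10583 bp) and Egr1 (4194 bp) were at UP, Epha2 (12220 bp) at DOWN and 6 at unchanged regions. Of 53 other receptor tyrosine kinases, 41 had no TSS in a region, 1 was at UP (Mertk, 1301 bp), and 3 were at DOWN (Epha2, Epha1 at 7391 bp and Fgfr4, the FGF15 receptor of hepatocytes, at 2580 bp). None of these shares was tested, and the 9.68% at UP and 3.72% at DOWN of all protein-coding genes are not a matched background for them. Regions reached a TSS of only 9805 of the 21924 protein-coding genes. Of those 9805 genes, 2123 were at UP and 815 at DOWN. Regions reached all 16 adaptor and trafficking genes and all 16 core genes, so their shares belong beside these counts. For the other receptor tyrosine kinases, regions reached only 12 of 53.

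**Figure D5:**
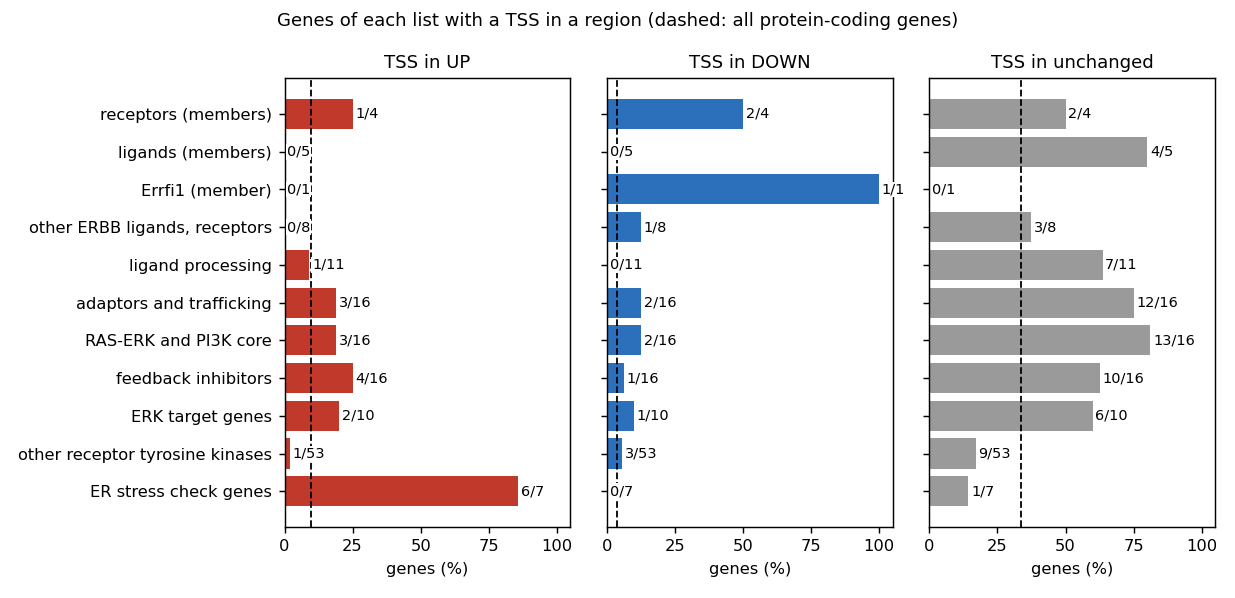
Percentage of the genes of each list with a TSS in an UP (left), DOWN (middle) or unchanged region (right), with the number of genes over the size of the list beside each bar. Dashed lines mark all protein-coding genes, including those outside every region, at 9.68%, 3.72% and 33.5%. In the bottom bar, 6 of 7 ER stress check genes lie at UP.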

How the data were processed

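H3K27ac ChIP-seq of MPH was analysed from the 3 region lists the authors deposited, in mm10 base pairs. According to their methods, reads without duplicates or blacklisted positions were counted in bins of 150 bp, bins at input level were discarded, and loess-normalized bins were tested in a paired csaw model and combined within broad MACS2 peaks of the pooled libraries. The submitters' processing notes name Bowtie and MACS2, and no versions are given there. The published commands set thapsigargin as the reference level while a comment in them names thapsigargin versus DMSO. Direction was therefore read from ERS genes, beside the paper's own use of UP and DOWN. Authors' gene assignment used another GENCODE release and was not repeated.

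TSSs, exons and gene bodies were taken from GENCODE M21, and regions were intersected with TSSs, bodies and windows of 50 kb. Motifs were searched as plain letters on both strands of GRCm38.p6 and in the 250 bases before RefSeq starts. Letters for AP-1, CRE, ATF4/CHOP, NRF2/MAF and FOXA are given with the results. The others were TGACGTGG for UPRE, CAAAGTCCA or CAAAGGTCA for HNF4, TTGCGCAA or TTGCGTAA for C/EBP, TTACGTAA for D-box, GCGTGGGCG for EGR and GGGGCGGGG for SP1. Erbb3 and Hbegf have no entry in the promoter table used. Members, gene lists and motifs were chosen with earlier results of these data known. Genes named besides members were those with a TSS in a member's region, up to 4 genes of each list with the widest UP and the widest DOWN TSS regions, ERS genes, and the 5 genes most like Egfr, and genes named at unchanged regions were chosen after their values were seen. Some list members are counted but not reported here by name. Other windows, transcript choices, width limits and base pairs were tried as alternatives. Overlap and motif counts were tested on simulated data. Python 3.11.15, pandas 2.3.3, pysam 0.24.0 and statsmodels 0.14.6 were used.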

Additional observations from a re-analysis of the deposited data

How the results depend on the processing

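No paired analysis was possible because the lists give positions with no value for a library. Fits without single replicates were not run and depth could not be weighed, as these need such values. The genes with a TSS at UP stayed at 1 and at DOWN at 3 under every definition of a TSS tried, while those at unchanged regions fell from 6 to 3 with 1 TSS a gene or with regions of at least 1 kb. A window of 10 kb held 7 UP, 5 DOWN and 15 unchanged regions in place of 14, 9 and 34, and one of 100 kb held 53 unchanged regions. Regions of at least 1 kb left 20 unchanged regions in the window and 11 of 19 in the bodies. UP regions made up 60.9% of changed regions in the windows (95% Wilson interval 40.8% to 77.8%, counting error alone) and 57.7% of their base pairs, and 76.9% in the bodies (49.7% to 91.8%) and 70.8% of the base pairs, beside 62.0% of all changed regions. The intervals treat regions as independent, but Met alone supplied 8 of the 14 UP regions in the windows and 7 of the 10 in the bodies. Egfr was also chosen for an UP region, so the intervals are no test against the share of all changed regions. For single genes, 10 of 100 differences between UP and DOWN counts moved by over 1.5 times or to or from 0. Egfr, equal at 3 and 3 within 50 kb, had 2 more DOWN than UP regions within 10 kb and 1 more UP within 100 kb, and had 58123 bp of UP against 38125 bp of DOWN sequence. No other gene had more UP regions under one alternative and more DOWN regions under another. Within 100 kb, Areg had 1 more UP than DOWN region, and the excess of DOWN regions at Errfi1 grew. Once regions nearer to another gene's TSS were removed, Erbb2 and Hbegf had no changed region left. Errfi1 then had as many UP as DOWN regions, but its UP region was 470 bp wide and its DOWN region 23661 bp.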
